A study of Mus musculus with 6 samples.

Results

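The genes described are 38 genes of glycolysis and of the response to low oxygen, chosen by symbol from the 55453 gene symbols of a count table: 4 glucose and lactate transporters, 17 glycolytic enzymes, 3 switches that set the flow through the pathway, 6 factors of oxygen sensing and 8 further genes known as targets of the hypoxia-inducible factors (HIF). All 38 passed the filter on low counts, as did 14877 genes in all. The table holds poly(A)-selected RNA sequencing of SB28, a glioma line of C57BL/6 mice, as 3 libraries labelled PP2AcKO (genotype PP2A KO) and 3 labelled PP2AcWT (wild type). PP2Ac is the catalytic subunit of protein phosphatase PP2A. No treatment, time point or animal age is attached to the libraries. The sample labels place the genotype on SB28, whereas the design text of the series describes SB28 tumours grown in wild-type mice and in mice whose floxed PP2Ac is deleted by Cre from the LysM locus, a driver active in myeloid cells. The labels therefore do not settle which cells carry the deletion, nor whether cultured cells or tumours were sampled, and they do not say how the knockout was made or whether it is a single clone. Knockout and wild type are used below as names of the labelled groups. Nothing says that the libraries of a group came from separate cultures, and if they did not, the p-values reflect library-to-library variation alone, possibly of technical origin.

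Glycolysis splits glucose into pyruvate in the cytosol, and many tumour cells, gliomas among them, turn much of that pyruvate into lactate even when oxygen is present. When oxygen is low, the prolyl hydroxylases no longer mark the HIF alpha subunits for destruction by the VHL ubiquitin ligase, and the stabilised subunits pair with ARNT and switch on genes for glucose uptake, glycolysis, blood vessel growth and matrix formation. HIF alpha subunits are controlled largely at the level of the protein, which RNA counts do not measure.

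The members moved in both directions. Of the 38, 14 were higher and 19 lower in the knockout libraries and 5 did not pass the threshold (edgeR quasi-likelihood test, adjusted p of at most 0.05 over all tested genes). Both groups of libraries differed across much of the transcriptome: 64.0% of all tested genes passed the same threshold, 31.9% as higher and 32.1% as lower, against 86.8% of the members. The members were also more abundant than most genes, with a median of 90.0 CPM (counts scaled to the size of the library) against 20.6 over all tested genes, and their greater share of calls was not compared at matched abundance. Their median log2 fold change (knockout over wild type) was -0.22, against -0.01 over all tested genes. Against a minimum fold change of 1.5 (edgeR glmTreat), 6 members were higher and 8 lower, or 36.8%, against 26.7% of all tested genes (13.5% higher and 13.2% lower). The groups of libraries did not overlap in CPM for 33 members, against 68.3% of all tested genes (33.9% with the knockout above and 34.4% with it below). The highest rise was that of Ndrg1 (log2 fold change 2.38) and the deepest fall that of Slc2a3 (-3.26). Among the enzymes 4 rose and 9 fell, and among the other HIF targets 4 rose and 3 fell; the difference between these splits was not tested.

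**Figure D1:**
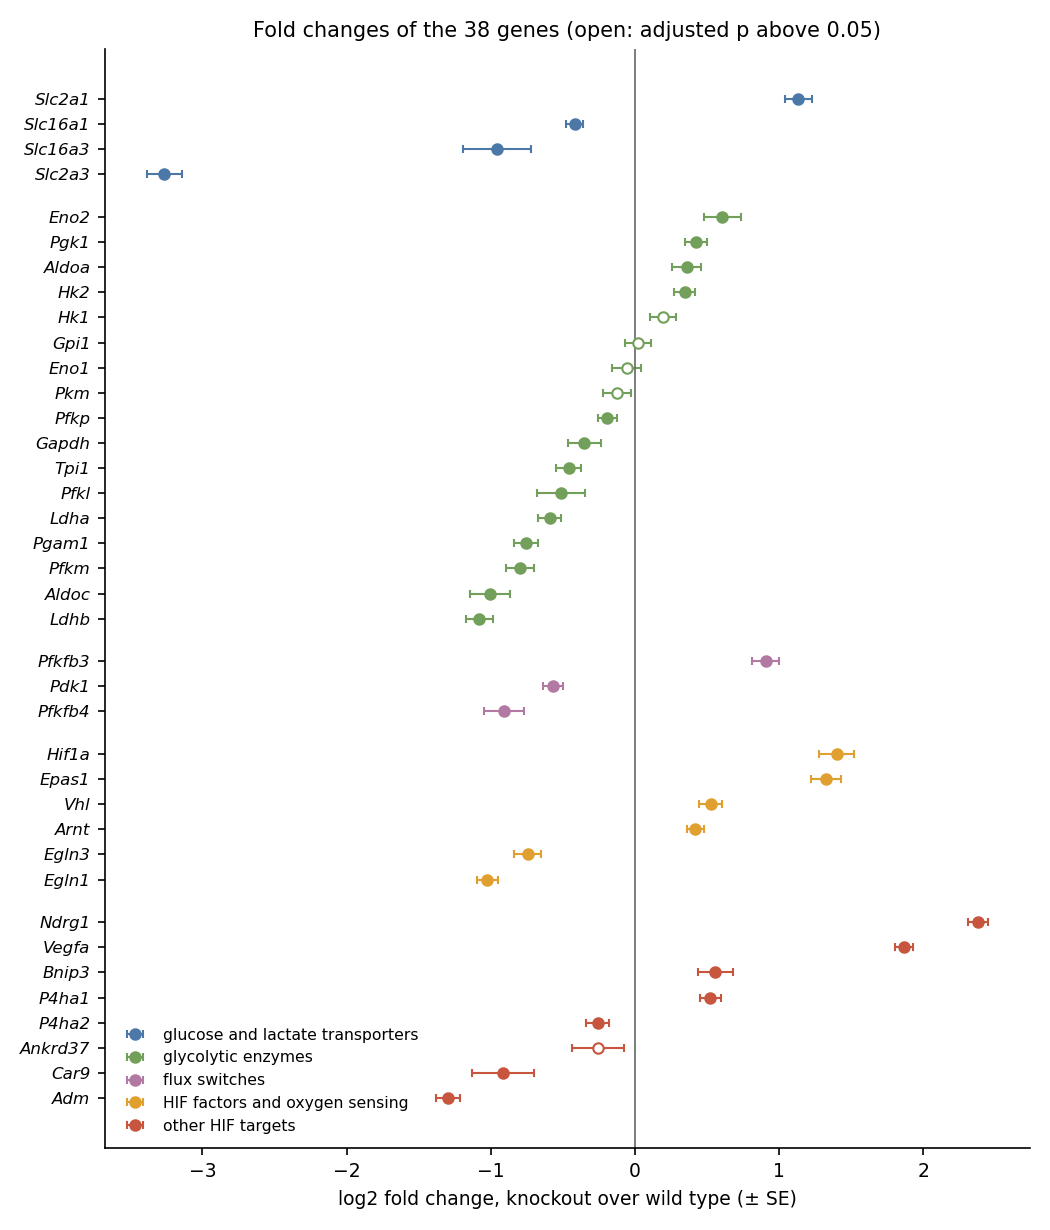
Log2 fold change of each of the 38 members, knockout over wild type, grouped by role, with bars for its SE from the edgeR fit (3 libraries per group); filled points passed an adjusted p of 0.05. Every role group lies on both sides of 0. Transporters, switches and HIF genes run from -3.26 (Slc2a3) to 2.38 (Ndrg1), and the enzymes over a narrower range, from -1.08 (Ldhb) to 0.61 (Eno2).

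Library totals ran from 38735864 to 49344079 counts. Ppp2ca, which encodes the targeted subunit, had 274, 244 and 247 CPM in the wild-type and 217, 187 and 193 CPM in the knockout libraries (log2 fold change -0.36 ± 0.08 SE, edgeR adjusted p = 0.00377). The groups did not overlap, but most of the Ppp2ca transcript was still counted, and exons of genes on the other strand cover 41.3% of its exon bases. Markers of T and NK cells (8 genes) each stayed below 1 CPM, with Cd3e, Cd3g, Cd8a and Ncr1 at 0. Those of macrophages and microglia (12 genes) summed to 3.35–3.73 CPM in wild type and 5.10–5.62 in knockout libraries, with Adgre1, C1qa, C1qb, C1qc and Tyrobp at 0. Most of that sum was Cd68 (3.01 and 4.43 CPM). The others rested on few reads, given as counts over the group. Ptprc (0.231 and 0.0856 CPM, 31 and 11 counts), Csf1r (0.164 and 0.0795 CPM, 23 and 10 counts) and Cx3cr1 (0.0496 and 0.0320 CPM, 7 and 4 counts) were lower in the knockout. Lyz2 (0.00756 and 0.357 CPM, 1 and 44 counts), Fcer1g (0.120 and 0.292 CPM, 16 and 37 counts) and P2ry12 (0.00653 and 0.0554 CPM, 1 and 7 counts) were higher there. Those of neutrophils (5 genes) summed to 0.0454–0.117 and 3.32–3.78 CPM, nearly all of it S100a8 (0.0450 and 3.481 CPM), with S100a9 and Mpo at 0. The 6 endothelial markers summed to 400–433 and 419–457 CPM, nearly all of it Cdh5, while Pecam1 stayed below 1 CPM. Among the others, Kdr was higher in the knockout (1.65 and 7.78 CPM). Tek (1.40 and 0.295 CPM) and Esam (1.97 and 0.227 CPM) were lower, and Tie1 had 0 and 1 counts over the group. Of the glioma and glial markers, Nes (368 and 164 CPM) and Sox2 (116 and 78.4 CPM) were lower in the knockout and Pdgfra (39.8 and 49.0 CPM) higher, and Olig1 and Olig2 were at 0. The part of these differences in the results below was not tested. In bulk RNA, fewer cells of a type and less RNA per cell cannot be told apart. Both libraries numbered 1 stood apart from the others of their group: for 30 of the 38 members, library 1 deviated in the same direction from the mean log2 level of the other libraries in both groups, downward for 25 of them.

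Promoters of the members often held the core of the HIF response element. That core, ACGTG or GCGTG, was searched on both strands in the 250 bases before each RefSeq start (GRCm38.p6), where 35 of the 38 members were listed (Slc2a3, Epas1 and Ndrg1 were not). It was present for 31 of 35 members (88.6%), against 60.8% of the 10678 tested genes listed and 41.5% of all 27025 genes listed; a gene with several starts counted when any of its windows held it. Window by window, it was in 79.6% of 49 member windows and 54.6% of 13679 windows of tested genes, whose median GC content was 60.4% and 59.6%. It was present for 10 of 12 members that rose, 17 of 18 that fell and 4 of the 5 that did not pass the threshold. All 7 other HIF targets listed held it, as did 14 of the 17 enzymes. For Vegfa, Hk1, Aldoa and Pkm, however, the window nearest the annotated 5′ end of the gene held no match. These genes counted only through starts farther from that end, at 7206 bases for Vegfa, 39487 for Hk1, 1497 and 1573 for Aldoa and 859 for Pkm. With ACGTG alone, the motif was found for 20 of 35 members (57.1%, against 24.9% of tested genes listed), and its split was another one, 9 of 12 that rose and 9 of 18 that fell, 6 of 7 other HIF targets and 7 of 17 enzymes. The palindrome CACGTG, which MYC and other E-box factors also bind, contains ACGTG on both strands. A match describes the letters only and not a bound site. The 6 windows below, 3 of genes that rose (Pgk1, Hk2 and P4ha1) and 3 of genes that fell (Slc16a1, Pgam1 and Egln3), are shown because they carry the same core with opposite directions of change. They are printed 5′ to 3′ on the strand of the gene, in lower case with each match on either strand in capitals (CACGT and CACGC are the reverse complements), and end at the base before the start.
Pgk1 (chrX:106186850-106187099, plus strand): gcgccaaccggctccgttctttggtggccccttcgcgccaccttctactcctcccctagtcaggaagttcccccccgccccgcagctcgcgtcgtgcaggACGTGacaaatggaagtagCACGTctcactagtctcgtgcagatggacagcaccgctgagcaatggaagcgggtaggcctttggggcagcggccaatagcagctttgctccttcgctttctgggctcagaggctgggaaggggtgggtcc
Hk2 (chr6:82774455-82774704, minus strand): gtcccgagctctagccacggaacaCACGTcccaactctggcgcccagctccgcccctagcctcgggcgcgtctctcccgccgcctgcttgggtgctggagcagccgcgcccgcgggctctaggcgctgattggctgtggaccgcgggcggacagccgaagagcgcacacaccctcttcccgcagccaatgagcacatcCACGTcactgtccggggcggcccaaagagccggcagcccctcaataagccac
P4ha1 (chr10:59323046-59323295, plus strand): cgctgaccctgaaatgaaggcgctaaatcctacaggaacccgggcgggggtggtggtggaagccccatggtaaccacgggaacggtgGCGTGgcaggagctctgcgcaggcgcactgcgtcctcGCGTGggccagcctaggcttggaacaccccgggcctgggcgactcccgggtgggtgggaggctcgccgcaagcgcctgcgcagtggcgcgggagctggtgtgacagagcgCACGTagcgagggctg
Slc16a1 (chr3:104638414-104638663, plus strand): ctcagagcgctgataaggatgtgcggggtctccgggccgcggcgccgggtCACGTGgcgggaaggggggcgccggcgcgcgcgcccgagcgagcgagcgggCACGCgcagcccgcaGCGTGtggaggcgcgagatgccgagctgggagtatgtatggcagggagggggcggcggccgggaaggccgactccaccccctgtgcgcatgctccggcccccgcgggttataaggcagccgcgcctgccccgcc
Pgam1 (chr19:41911621-41911870, plus strand): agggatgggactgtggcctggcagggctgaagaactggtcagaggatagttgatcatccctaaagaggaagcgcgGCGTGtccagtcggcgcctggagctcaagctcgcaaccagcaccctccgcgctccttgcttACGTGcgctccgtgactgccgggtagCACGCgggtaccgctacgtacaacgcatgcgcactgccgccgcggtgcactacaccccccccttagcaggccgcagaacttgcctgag
Egln3 (chr12:54203875-54204124, minus strand): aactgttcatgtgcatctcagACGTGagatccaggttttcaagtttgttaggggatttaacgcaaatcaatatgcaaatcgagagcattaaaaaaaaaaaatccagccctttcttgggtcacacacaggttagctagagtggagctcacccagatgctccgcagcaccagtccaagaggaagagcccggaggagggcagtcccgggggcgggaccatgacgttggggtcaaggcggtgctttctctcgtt
Among the rising genes, the Pgk1 match nearest the start lies 131 bases before it and that of P4ha1 16 bases before it. Slc16a1 holds a palindromic CACGTG 200 bases before its start, and Egln3 a single match 229 bases before it.

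The glucose transporters changed in opposite directions. Slc2a1 encodes GLUT1, the transporter for basal glucose uptake in most cells (ENSMUSG00000028645.11, chr4:119108711-119137983, plus strand, GRCm38). It had 109, 129 and 125 CPM in wild-type and 236, 279.2 and 281 CPM in knockout libraries, so that every knockout library lay above every wild-type one, a 2.19-fold rise (log2 fold change 1.13 ± 0.09 SE, edgeR adjusted p = 9.23e-06). Slc2a3 encodes GLUT3, the high-affinity transporter typical of neurons (ENSMUSG00000003153.10, chr6:122727809-122801640, minus strand). Its level was 50.3, 51.7 and 52.9 CPM in wild-type and 4.41, 5.61 and 6.13 CPM in knockout libraries. That is a 9.61-fold fall (-3.26 ± 0.12, adjusted p = 6.74e-08), the deepest among the members, with no overlap between the groups. The 6 neuronal markers summed to 1.56–2.29 CPM in wild-type libraries against 0.683–1.35 CPM in those of the knockout, with Rbfox3 at 0 in all. Among them Snap25 was lower in the knockout (1.32 and 0.142 CPM), as was Stmn2 (27 and 0 counts over the group), and Gad1 was higher (1 and 56 counts). Their part in the Slc2a3 result was not tested. Per kilobase of exon, the balance of Slc2a1 to Slc2a3 transcripts moved from 82.9% Slc2a1 in wild type to 99.0% in knockout libraries. Summed over all 4 transporters, those for lactate included, the CPM level was nearly the same in both groups, 484 ± 7.71 and 504 ± 25.2 (SD, n = 3 each). In that sum the rise of Slc2a1 (mean 121 to 266 CPM) was offset by falls of Slc2a3, Slc16a1 (310 to 232 CPM) and Slc16a3.

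Both lactate transporters were lower. Slc16a1, which encodes MCT1, had 317, 309.9 and 302 CPM in wild-type and 234, 227 and 234 CPM in knockout libraries, without overlap (1.34-fold lower, edgeR adjusted p = 0.000254). Slc16a3 encodes MCT4, the lactate exporter of highly glycolytic cells and a known HIF target. It was scarce in all libraries and fell from 1.37, 1.84 and 2.37 CPM to 0.852, 0.927 and 1.07 CPM (log2 fold change -0.96, adjusted p = 0.00595). Bsg, the chaperone that brings both proteins to the membrane, is outside the members and rose from 417 ± 16.8 to 550 ± 53.8 CPM (log2 fold change 0.40, adjusted p = 0.00248).

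Most enzymes of the glycolytic chain changed by less than 1.5-fold. Of the 17, 4 rose (Hk2, Aldoa, Pgk1 and Eno2), 9 fell (Pfkl, Pfkm, Pfkp, Aldoc, Tpi1, Gapdh, Pgam1, Ldha and Ldhb) and 4 did not pass the threshold (Hk1, Gpi1, Eno1 and Pkm). Against a minimum fold change of 1.5, none rose and 4 fell (Pfkm, Aldoc, Pgam1 and Ldhb), or 23.5%, against 26.7% of all tested genes. Their summed level was 8744, 9651 and 9966 CPM in wild-type and 7653, 9369 and 9343 CPM in knockout libraries, with overlap between the groups. The 17 enzymes took 0.765–0.997% of all scaled counts.

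**Figure D2:**
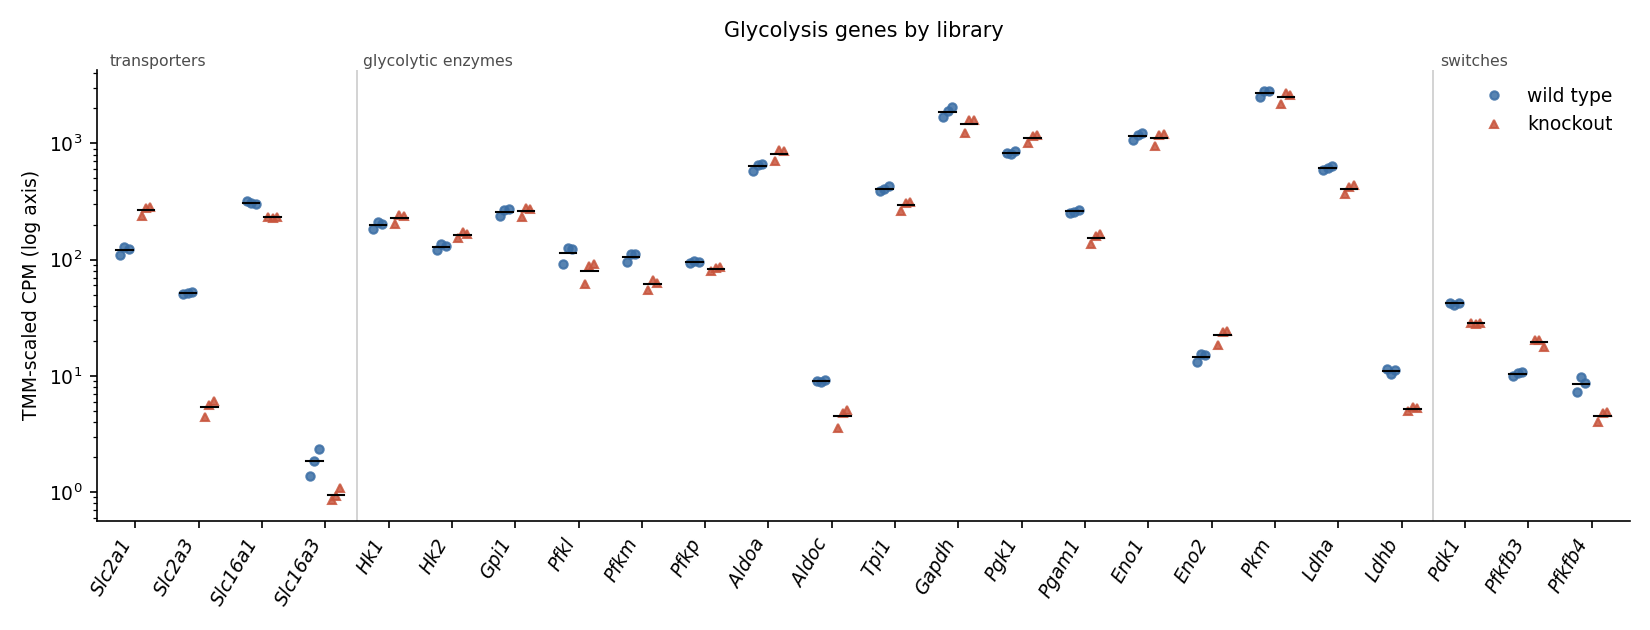
CPM of each library (log axis) for the transporters, the 17 enzymes in pathway order and the 3 switches; points are libraries and short lines are group means (3 libraries per group). Enzyme levels run from about 5 CPM (Aldoc, Ldhb) to above 2000 CPM (Pkm), and the widest gap between groups is that of Slc2a3.

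Of the hexokinases, which trap glucose in the cell as glucose phosphate, Hk2, the inducible form typical of muscle and tumours, rose from 121, 135 and 132 CPM to 154, 172 and 166 CPM. The groups did not overlap (1.27-fold higher, log2 fold change 0.34 ± 0.07 SE, edgeR adjusted p = 0.003). Hk1, the form found in most tissues, had 199 ± 13.5 and 228 ± 23.4 CPM (SD, n = 3 each), with overlap, and missed the threshold (log2 fold change 0.19, adjusted p = 0.089). It passed as higher without the knockout library 1 (0.28, adjusted p = 0.00672) without both libraries numbered 1 (0.23, adjusted p = 7e-06) and with the replicate number as a block (0.19, adjusted p = 0.00016). Gpi1, the isomerase that follows, overlapped between groups at 258 ± 18.1 and 262 ± 25.6 CPM (adjusted p = 0.848).

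All 3 phosphofructokinase genes, which encode the committed step of the pathway, were lower. Pfkm, the muscle isoform, fell from 94.98, 113 and 111 CPM to 54.5, 66.3 and 63.2 CPM (1.74-fold lower, log2 fold change -0.80 ± 0.10 SE, edgeR adjusted p = 0.00011). Pfkl, the liver isoform, had 92.1, 126 and 124 CPM against 61.4, 88.2 and 91.1 CPM, with library 1 of either group well below the others (adjusted p = 0.0239). Its call was lost without the wild-type library 2 (adjusted p = 0.0908) or 3 (0.0752). Pfkp, the platelet isoform, fell by 0.19 on the log2 scale (adjusted p = 0.0303), a call that was lost when any library other than the wild-type library 1 was left out (adjusted p from 0.0538 to 0.111) and without the filter on low counts (0.0961). Exons of Pitrm1 on the other strand cover 5.58% of its exon bases, and Pitrm1 had 125–160% of its counts, so reads there cannot be told apart. Per kilobase of exon union, Pfkm had the largest share of their summed level, 56.8% in wild type and 50.1% in the knockout. That rank rests on the lengths used and was not the rank by mean CPM. By mean CPM, Pfkl was the highest in wild type (114, against 106 for Pfkm and 95.5 for Pfkp). In the knockout, Pfkm was the lowest (61.3 CPM, against 80.2 for Pfkl and 83.6 for Pfkp).

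Among the enzymes that cut and rearrange the sugar, the aldolases moved apart. Aldoa, which per kilobase was the far more abundant aldolase (218 against 2.75 CPM per kilobase for Aldoc in wild type), rose from 634 ± 50.8 to 813 ± 96.4 CPM (SD, n = 3 each; 1.28-fold, edgeR adjusted p = 0.0116), while the brain form Aldoc fell from 9.01, 8.80 and 9.14 CPM to 3.54, 4.81 and 5.11 CPM (2.01-fold lower, adjusted p = 0.000214). Tpi1, the triose phosphate isomerase, fell from 388, 404 and 426 CPM to 262, 308 and 315 CPM (1.38-fold lower, adjusted p = 0.00119). The groups did not overlap for any of these 3 genes.

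Along the later steps, from triose phosphate to pyruvate, neighbouring steps went different ways. Gapdh, which is also widely used as a reference gene, fell from 1683, 1897 and 2051 CPM to 1234, 1579 and 1599 CPM (1.28-fold lower, log2 fold change -0.35 ± 0.11 SE, edgeR adjusted p = 0.0233). The groups did not overlap, and the call was lost without the wild-type library 2 (adjusted p = 0.0668) or 3 (0.0936). Pgk1, which makes the pathway's first ATP (ENSMUSG00000062070.12, chrX:106187100-106203699, plus strand), rose from 826, 816 and 855 CPM to 1007, 1163 and 1172 CPM, again without overlap (1.34-fold higher, adjusted p = 0.00109). Of its exon 50-mers, 53.9% also occur in other genes, pseudogenes among them, so reads may have been dropped there. The same holds for other members, with shares of 47.2% for Bnip3, 36.2% for Pgam1, 26.0% for Eno1, 25.8% for Pkm and 25.1% for Gapdh. Pgam1, the phosphoglycerate mutase, fell from 253, 258 and 269 CPM to 137, 159 and 166 CPM (1.69-fold lower, adjusted p = 4.56e-05).

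Of the enolases, the ubiquitous Eno1 overlapped between groups at 1158 ± 79.7 and 1113 ± 143 CPM (SD, n = 3 each; edgeR adjusted p = 0.64), whereas the neuronal form Eno2, a known HIF target, rose from 13.1, 15.5 and 15.3 CPM to 18.3, 24.0 and 24.4 CPM (1.52-fold higher, adjusted p = 0.00274). Pkm, the pyruvate kinase, had the highest mean CPM of the enzymes in both groups. Per kilobase of exon union it had 546 and 502 CPM, the latter close to Pgk1 in the knockout (497), so a rank by that measure rests on the lengths used. Pkm had 2733 ± 206 and 2509 ± 286 CPM and did not pass the threshold (log2 fold change -0.12, adjusted p = 0.295). It passed as lower with the replicate block (-0.13, adjusted p = 0.00272) and without both libraries numbered 1 (-0.09, adjusted p = 0.0422). The count for Pkm adds its splice forms M1 and M2 together.

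Both lactate dehydrogenase genes fell. Ldha, whose subunit favours making lactate from pyruvate and which is a classic HIF target (ENSMUSG00000063229.15, chr7:46841475-46855627, plus strand), had 596, 612 and 641 CPM in wild-type and 368, 422 and 436 CPM in knockout libraries. The groups did not overlap (1.51-fold lower, log2 fold change -0.59 ± 0.08 SE, edgeR adjusted p = 0.000171). Ldhb, whose subunit favours the reverse reaction, fell from 11.4, 10.5 and 11.2 CPM to 4.97, 5.39 and 5.26 CPM (2.11-fold lower, adjusted p = 1.18e-05). A single other gene, Gm5514, shares 21.0% of the exon 50-mers of Ldhb and held counts equal to 0.434–4.95% of its own.

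The 3 switches were Pfkfb3, Pfkfb4 and Pdk1. Pfkfb3 and Pfkfb4 set the level of a regulatory fructose bisphosphate that activates phosphofructokinase and differs from the one this enzyme makes. Pdk1 shuts pyruvate out of the mitochondrial acetyl-CoA reaction. All 3 are known HIF targets, a status named in this text for some of the glycolysis members only, so it gives no count of targets that rose or fell. Pfkfb3 rose from 9.91, 10.5 and 10.8 CPM to 20.4, 20.5 and 17.6 CPM (1.87-fold, edgeR adjusted p = 3.8e-05). Pfkfb4 fell from 7.23, 9.73 and 8.66 CPM to 3.99, 4.78 and 4.88 CPM (1.88-fold lower, adjusted p = 0.000435), and Pdk1 from 42.0 ± 0.907 to 28.3 ± 0.462 CPM (SD, n = 3 each; 1.48-fold lower, adjusted p = 8e-05). No wild-type library overlapped a knockout library for any of the 3.

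Paralogue pairs were then compared by the log2 ratio of their counts within each library, which does not depend on how libraries are scaled. Of 11 pairs, 8 had ratios that did not overlap between groups, and for each of those the exact two-sided permutation test gave p = 0.1, the smallest that 3 against 3 libraries allow (adjusted p = 0.138 over the 11 pairs). Taken singly, 68.3% of all tested genes did not overlap between groups in CPM, and the share for other gene pairs was not computed. The widest shift was that of Slc2a1 over Slc2a3, from a mean log2 ratio of 1.23 to 5.63, followed by Pfkfb3 over Pfkfb4 (0.29 to 2.10) and Aldoa over Aldoc (6.14 to 7.51). Ldha over Ldhb moved from 5.80 to 6.29, Pfkm over Pfkp from 0.15 to -0.45, Eno1 over Eno2 from 6.31 to 5.65 and Hk1 over Hk2 from 0.62 to 0.47 on average in wild-type and knockout libraries. The ratios of Pfkl to Pfkp, Slc16a1 to Slc16a3 and Hif1a to Epas1 overlapped between groups (exact permutation p of 0.3, 0.2 and 0.7).

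**Figure D3:**
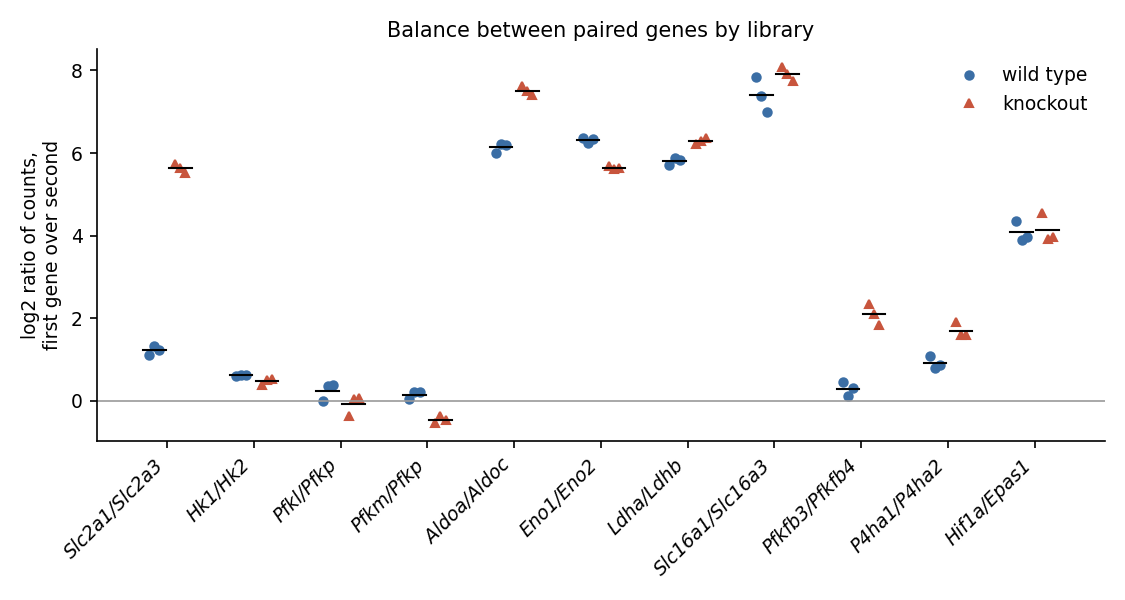
Log2 ratio of counts between paralogues within each library (pseudocount 0.5); points are libraries, 3 per group. The Slc2a1/Slc2a3 ratio moved by 4.40 on the log2 scale, that of Pfkfb3/Pfkfb4 by 1.80, and Hif1a/Epas1 overlapped between groups.

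The HIF subunit genes were higher in the knockout libraries. Hif1a (ENSMUSG00000021109.13, chr12:73901375-73947530, plus strand) rose from 196, 166 and 158 CPM to 538, 408 and 427 CPM (2.64-fold, log2 fold change 1.40 ± 0.12 SE, edgeR adjusted p = 1.21e-05). Library 1 was the highest of each group, and the groups stayed far apart. Epas1, which encodes the alpha subunit HIF2, rose from 9.54, 11.2 and 10.1 CPM to 23.0, 26.8 and 27.3 CPM (2.51-fold, adjusted p = 5.84e-06). Arnt, the common partner of both, rose less, from 77.4 ± 0.834 to 103 ± 0.974 CPM (SD, n = 3 each; 1.34-fold, adjusted p = 0.000267). Per kilobase, Hif1a had 16.04 times the level of Epas1 in wild type and 16.9 times in the knockout.

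The oxygen-sensing genes were split. Egln1, which encodes the main prolyl hydroxylase PHD2 (ENSMUSG00000031987.6), fell from 80.7, 86.5 and 86.1 CPM to 39.1, 43.8 and 41.9 CPM (2.03-fold lower, edgeR adjusted p = 3.23e-06). Egln3, a hydroxylase gene that HIF itself induces, fell from 14.0, 12.4 and 13.7 CPM to 7.91, 7.74 and 8.25 CPM (1.68-fold lower, adjusted p = 0.000108). Vhl, the recognition subunit of the ligase that removes hydroxylated HIF, rose from 16.9 ± 0.732 to 24.3 ± 1.28 CPM (SD, n = 3 each; 1.44-fold, adjusted p = 0.000476). None of these 3 overlapped between groups.

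The 8 other HIF targets held both the steepest rises among the members and clear falls: 4 rose, 3 fell and Ankrd37 missed the threshold. Vegfa, the main growth factor for blood vessels (ENSMUSG00000023951.17, chr17:46016993-46032369, minus strand), rose from 96.3, 104 and 103 CPM to 366, 375 and 366 CPM, a 3.65-fold rise (log2 fold change 1.87 ± 0.06 SE, edgeR adjusted p = 5.06e-08). Ndrg1, a stress-response gene (ENSMUSG00000005125.13, chr15:66929318-66969640, minus strand), rose from 40.3, 39.9 and 43.3 CPM to 207, 220.0 and 215 CPM (5.20-fold, adjusted p = 2.24e-08). For both genes the knockout libraries lay several times above all wild-type libraries. Bnip3, a mitophagy receptor, rose from 28.8, 24.4 and 24.6 CPM to 45.3, 34.5 and 34.7 CPM (1.47-fold, adjusted p = 0.00354), with library 1 the highest in each group.

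Adm, the gene for the vasodilator adrenomedullin (ENSMUSG00000030790.15, chr7:110627661-110629820, plus strand), fell from 40.8, 42.8 and 40.3 CPM to 15.5, 18.0 and 16.99 CPM (2.46-fold lower, edgeR adjusted p = 1.69e-06). It thus moved against Vegfa, with no overlap between groups. Car9, a carbonic anhydrase widely used as a marker of hypoxic tumour tissue, was scarce and fell from 1.43, 1.47 and 1.03 CPM to 0.627, 0.805 and 0.664 CPM (1.89-fold lower, adjusted p = 0.00502). Exons of Gm12454 on the other strand cover 9.29% of its exon bases. Ankrd37 had 1.87 ± 0.189 and 1.57 ± 0.294 CPM (SD, n = 3 each; adjusted p = 0.237), and 26.4% of its exon bases lie opposite exons of Lrp2bp and Ufsp2, the latter with at least 1598% of its counts in each library. The strand setting of the counting is not given in the sources used here, so the reads of Car9 and Ankrd37 cannot be told from those of these partners.

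The collagen prolyl hydroxylase genes, whose enzymes stabilise collagen, moved apart. P4ha1 rose from 122, 111 and 113 CPM to 177, 161 and 161 CPM (1.44-fold, edgeR adjusted p = 0.000197). P4ha2 fell from 57.1, 63.6 and 62.3 CPM to 46.9, 53.4 and 53.0 CPM (1.19-fold lower, adjusted p = 0.0195), a call lost without the wild-type library 2 (0.0818) or 3 (0.0745). Neither gene overlapped between groups, and the share of P4ha1 in the pair, per kilobase, went from 74.2% to 83.1%. Summed over the 8 targets, the level was 389 ± 0.733 CPM in wild type and 858 ± 7.74 CPM in the knockout (SD, n = 3 each), most of the difference being Vegfa and Ndrg1.

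**Figure D4:**
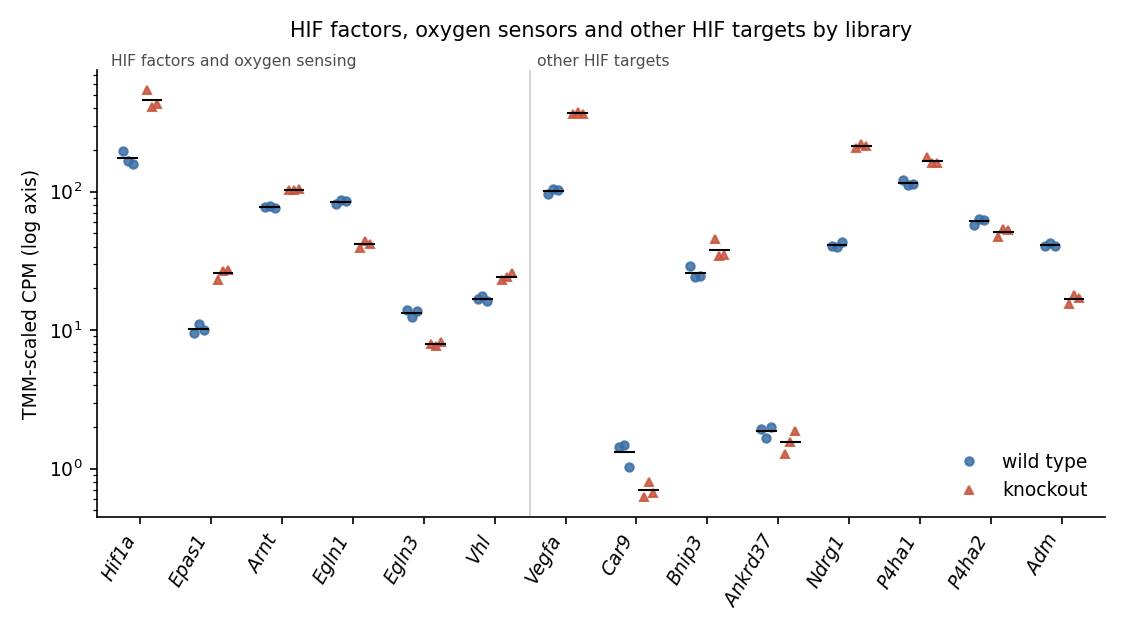
CPM of each library (log axis) for the 6 HIF and oxygen-sensing genes and the 8 other HIF targets; points are libraries and short lines are group means (3 libraries per group). Vegfa and Ndrg1 have the widest gaps upward (3.65-fold and 5.20-fold), Adm and Egln1 the widest downward, and Ankrd37 overlaps.

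Other genes of the same pathways, 94 in all from lists set apart from the members, were counted for context, and 81 were tested: 34 rose, 21 fell and 26 missed the threshold, so that 67.9% were called, against 64.0% of all tested genes. Of 22 tested further genes of glycolysis and gluconeogenesis, 6 rose and 9 fell (68.2% called). Pck2, the mitochondrial enzyme that makes phosphoenolpyruvate, rose from 136 ± 14.1 to 177 ± 21.3 CPM (SD, n = 3 each; edgeR adjusted p = 0.0136; 0.0559 without the knockout library 3). Gys1, the glycogen synthase of most tissues, rose from 74.6 ± 7.77 to 94.8 ± 7.71 CPM (adjusted p = 0.0112). Bpgm, singled out after its values were seen, encodes the mutase that makes bisphosphoglycerate from the same intermediate that phosphoglycerate kinase handles, and fell from 124, 112 and 129 CPM to 30.3, 32.3 and 32.8 CPM (log2 fold change -1.94, adjusted p = 1.19e-07).

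Of 12 genes for the entry of pyruvate into mitochondria, 3 rose and 4 fell (58.3% called, against 64.0% of all tested genes). Pdha1, a catalytic subunit of pyruvate dehydrogenase, fell from 273 ± 8.29 to 184 ± 10.1 CPM (SD, n = 3 each; edgeR adjusted p = 8.12e-05), while Dld, the dehydrogenase that this complex shares with others, rose from 143 ± 15.1 to 241 ± 23.9 CPM (adjusted p = 0.00017). Pdhb, the other chain of the first subunit, had 69.5 ± 2.62 and 73.0 ± 2.66 CPM (adjusted p = 0.379). In the pentose phosphate branch, 3 of 7 genes rose and 2 fell (71.4% called, against the same 64.0%). G6pdx, its entry enzyme, rose from 188 ± 4.70 to 267 ± 7.11 CPM (adjusted p = 8.84e-05), and Pgd, which acts later in the same oxidative arm, fell from 144 ± 8.68 to 116 ± 10.5 CPM (adjusted p = 0.0104). Tkt, the transketolase, passed at adjusted p = 0.0394 with a log2 fold change of 0.25, a call lost with upper-quartile scaling (0.107) and without any 1 library other than the knockout library 1 (0.0534 to 0.133).

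Of 8 tested further oxygen-sensing genes, 4 rose and 3 fell (87.5% called, against 64.0% of all tested genes). Cited2, a HIF target whose protein competes with HIF for its coactivator, rose from 108, 130 and 124 CPM to 542, 616 and 602 CPM (log2 fold change 2.28, edgeR adjusted p = 1.14e-07). Arnt2, the neural relative of Arnt, rose from 56.8 ± 2.46 to 141 ± 4.87 CPM (SD, n = 3 each; adjusted p = 4.73e-07), and Hif1an, the asparagine hydroxylase that limits HIF activity, from 75.2 ± 3.64 to 89.3 ± 0.949 CPM (adjusted p = 0.00886).

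Of 32 tested further HIF targets, 18 rose, 3 fell and 11 missed the threshold, with a median log2 fold change of 0.45 against -0.01 over all tested genes. The share called, 65.6%, was near the 64.0% of all tested genes. Against a minimum of 1.5-fold, 12 rose and 3 fell, or 46.9%, against 26.7% of all tested genes. Plin2, the coat protein of lipid droplets, rose from 409, 427 and 435 CPM to 2063, 2349 and 2188 CPM (log2 fold change 2.38, edgeR adjusted p = 3.01e-08), and Lox, the collagen crosslinker, from 231 ± 9.03 to 415 ± 34.0 CPM (SD, n = 3 each; adjusted p = 1.43e-05). Tfrc, the transferrin receptor, had 327 ± 34.7 and 352 ± 42.4 CPM (adjusted p = 0.387). The 3 that fell, named after their values were seen, were Loxl2, a relative of Lox (44.4 ± 2.61 to 0.701 ± 0.125 CPM), Car12, a relative of Car9 (22.1 ± 0.707 to 2.33 ± 0.318 CPM), and Edn1, the gene for endothelin (7.33 ± 0.910 to 1.62 ± 0.0887 CPM). Lox and Loxl2, like Vegfa and Adm, thus moved in opposite directions in the same libraries.

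**Figure D5:**
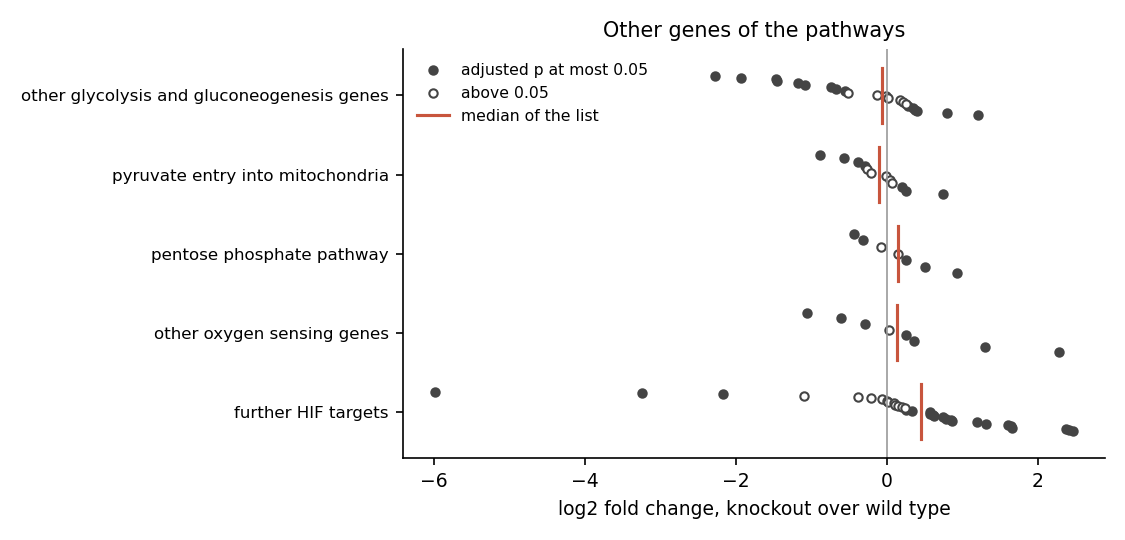
Log2 fold change (knockout over wild type) of the 81 tested genes of the 5 pathway lists outside the members, 1 point per gene, filled where the adjusted p was at most 0.05, with the median of each list as a line. The further HIF targets have a median of 0.45 and 3 genes far to the left (Loxl2, Car12 and Edn1), while the other glycolysis genes have a median of -0.07.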

How the data were processed

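The authors deposited raw read counts per gene symbol, 1 column for each of the 6 libraries, and 0 columns of other samples were present. The submitters' processing notes name mm10 and GRCm38 as builds and, without saying what each did, the tools limma 3.48.3, edgeR 3.34.0, HTSeq 0.11.2, STAR 2.7.1a and fastp 0.20.0. How strands were counted and with which annotation is not given in the sources used here.

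Columns were matched to samples by title. The filter on low counts was filterByExpr by group (edgeR 4.0.16, R 4.3.3) and left 14877 of 27491 symbols with a count. Libraries were scaled by TMM, and groups were compared by the quasi-likelihood F-test, with p-values adjusted by Benjamini-Hochberg over these 14877 genes and called at 0.05. The test was checked on simulated counts. CPM are counts scaled to a fixed total of the TMM-scaled library. CPM per kilobase used the exon union of all transcripts (GENCODE M21, GRCm38), an approximate length. Paralogue ratios used a pseudocount of 0.5 counts and an exact permutation test. Promoter sequences are RefSeq's (GRCm38.p6).

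Members and lists were chosen with earlier results of these data known. Named are all members, Ppp2ca and the 3 most abundant genes of each other list; others are marked. Deviations from the group means correlated over genes at 0.443, 0.161 and 0.150 for the libraries numbered 1, 2 and 3, so all passed the limit of 0.1 used to treat numbers as pairs. The labels do not state a pairing, and wild-type 3 with knockout 2 (0.189) and wild-type 2 with knockout 3 (0.150) correlated about as much, so that only the libraries numbered 1 stood out. No pair of replicates agreed within counting noise. Counts carry no molecular identifiers. Alternatives were RLE and upper-quartile scaling, DESeq2 1.42.0, no filter, a minimum fold of 1.5, a replicate block, each library left out, and both libraries numbered 1 left out.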

Additional observations from a re-analysis of the deposited data

How the results depend on the processing

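With RLE scaling and with DESeq2, 14 members were higher and 19 lower, as in the main analysis, and over the alternatives 453 of 494 member values kept their direction and side of the threshold, 31 lost the call, 5 gained it and 5 changed sign. Against a minimum fold of 1.5, the counts of higher and lower genes were 6 and 8 for the members (transporters 1 and 1, enzymes 0 and 4, switches 1 and 1, HIF factors 2 and 1, other HIF targets 2 and 1), 0 and 5 for other glycolysis genes, 0 and 1 for pyruvate entry, 1 and 0 for the pentose phosphate pathway and 2 and 1 for other oxygen-sensing genes. Upper-quartile scaling left 1 pyruvate entry gene higher (3 in the main analysis) and gave 5 further HIF targets lower (3), as did no filter and leaving out both libraries numbered 1. With the replicate block, 15 members were higher and 20 lower, Hk1 and Pkm being the only member calls it changed, and 6 further HIF targets were lower. Tfrc passed with the block (adjusted p = 0.0104) and without both libraries numbered 1 (0.0181), as did Pdhb without the latter (0.032). Leaving out 1 library gave 14 to 15 members higher and 15 to 19 lower, 1 to 3 pyruvate entry genes higher (1 without the wild-type libraries 2 or 3 or the knockout libraries 1 or 3), 1 to 2 pentose phosphate genes lower (1 without the wild-type libraries 2 or 3 or the knockout library 1), 1 to 3 other oxygen-sensing genes lower (1 without the wild-type library 3) and 3 to 5 further HIF targets lower (5 without the wild-type library 1). Log2 fold changes that were not called changed sign for Gpi1 (0.021; -0.0427 with upper-quartile scaling, -0.0300 to 0.1002 without 1 library) and Eno1 (-0.0572; -0.125 to 0.0450 without 1 library), and so did the shift of Hif1a over Epas1 (0.0707; -0.129 to 0.214 without 1 library). The motif ACGTG alone was found for 20 members in place of 31. The causes were not tested. Members near 1 CPM (Car9, Slc16a3, Ankrd37) had the widest standard errors, 0.18 to 0.23.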
